A study of Mus musculus with 6 samples.

Results

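The comparison described here sets mouse CD4+ T cells that lack the miR-17-92 cluster and were given back miR-17 against wild-type cells, and asks what remains different from wild type. Its members are the 2 KO-miR-17 arrays and the 2 WT-mock arrays, chosen by their titles, or 4 of the 6 arrays of the series. All 22626 of the 22690 probe sets that are not controls were taken, and 1 probe set for each gene left 12393 genes. The remaining 2 arrays, KO-mock, carry the same deletion with the empty vector. They are used to say whether a gene was already away from wild type without miR-17, and are compared directly with KO-miR-17. They also enter the choice of probe set and the estimate of spread behind the p-values, which were taken from all 6 arrays.

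In all 3 groups CD4+CD25- T cells were sorted, stimulated through CD3 and CD28 on coated plates, infected with a retrovirus and harvested 5 days later for total RNA. WT-mock cells came from B6 mice labelled wild type and received the empty vector. KO-mock and KO-miR-17 cells came from mice labelled miR-17-92 f/f CD4-cre+ on the B6 background, and received the empty vector or one overexpressing miR-17. The label of the wild-type mice names neither the floxed allele nor the Cre, so KO-miR-17 and WT-mock differ in genotype, in Cre and in vector. Cre driven by CD4 elements is known to act in the CD4 lineage from the thymus onward. The titles call the replicates biological, without saying how many mice stood behind each, and the p-values below measure the spread between these arrays. The transcripts of the cluster were not analysed here, so neither the deletion nor the level of the returned miR-17 was checked.

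The miR-17-92 cluster is a single primary transcript that is cut into several microRNAs of different seed families, and each mature microRNA lowers the mRNAs whose sites pair with its seed. In T cells the cluster is known to promote proliferation and survival after activation, and the miR-17 and miR-19 families are its members most studied in helper T cell responses. A vector that carries miR-17 alone returns only one of these microRNAs, whereas wild-type cells hold them all.

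The mature sequences show what was and was not returned, and the seed, bases 2 to 8 from the 5′ end, is in capitals. They are RefSeq's, with positions on GRCm38.p6, where the whole cluster lies on the plus strand of chromosome 14. The 5p arm of miR-17 lies at chr14:115043684-115043706, and the labels do not say which arm the vector was meant to supply.
mmu-miR-17-5p: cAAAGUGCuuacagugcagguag
mmu-miR-17-3p: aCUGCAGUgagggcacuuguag
mmu-miR-18a-5p: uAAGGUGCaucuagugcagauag
mmu-miR-19a-3p: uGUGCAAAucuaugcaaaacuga
mmu-miR-20a-5p: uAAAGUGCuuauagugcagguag
mmu-miR-19b-3p: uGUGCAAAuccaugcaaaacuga
mmu-miR-92a-3p: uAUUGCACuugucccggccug
The seed of miR-17-5p is shared with miR-20a-5p and with no other microRNA of the 7 shown. The seeds of miR-18a, of the miR-19a and miR-19b pair, and of miR-92a differ from it, and a vector for miR-17 alone does not carry them.

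With miR-17 returned, the deficient cells remained different from wild type, with Il10, Ctla2b, Ctla2a and Gem among the genes furthest below it and Drc1 and Rexo2 among those above it. Of the 12393 genes, 843 were called in KO-miR-17 against WT-mock (limma, Benjamini-Hochberg adjusted p under 0.05), which is 6.8% of the genes tested. Of these, 500 were higher (4.03%) and 343 lower (2.77%). Counts of called members in the gene lists below stand beside these shares. Differences of at least 2-fold were mostly losses, 98 lower against 51 higher, and together they made up 1.2% of the genes tested. In none of the 843 genes did the 2 groups of arrays overlap. The groups also failed to overlap in 50.4% of all genes, so separation alone says little at 2 arrays a group. At an unadjusted p under 0.05 the share was 22.8%, with 14.2% higher and 8.6% lower. Since RNA of whole cultures was measured, fewer cells of a type and less RNA per cell cannot be told apart.

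The number called rested on single arrays. It was 105 without WT-mock replicate 1, 448 without WT-mock replicate 2, 473 without KO-miR-17 replicate 1 and 74 without KO-miR-17 replicate 2. The share of calls that were higher, 59.3% with all arrays, was 22.9% without WT-mock replicate 1 and 28.4% without KO-miR-17 replicate 2. Of the 843 genes, 56 kept their call whichever of the 4 arrays was omitted, 16 of them higher and 40 lower, and 308 kept it in no such fit. Below, a gene said to be called in all 4 fits is one of the 56.

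**Figure D1:**
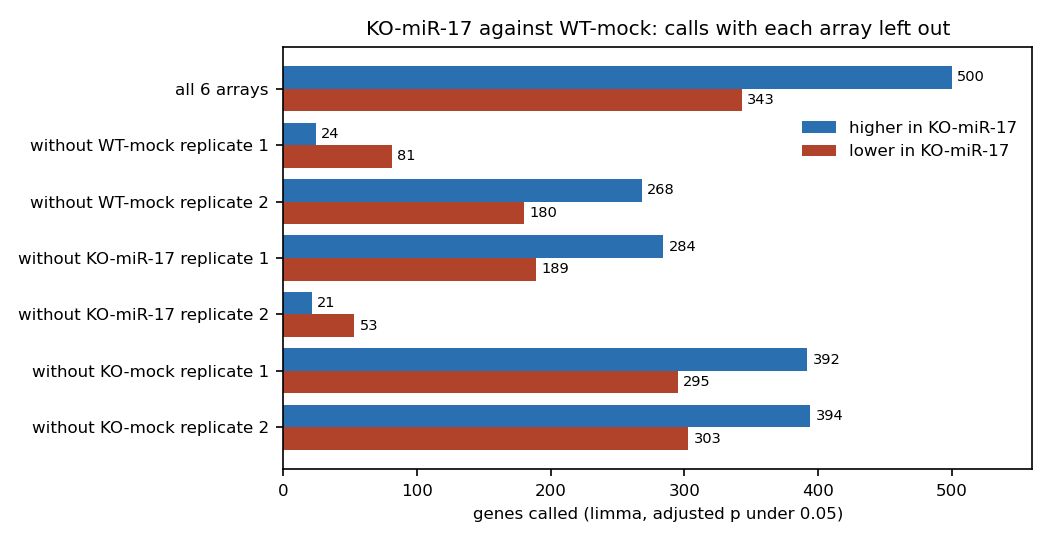
Genes called in KO-miR-17 against WT-mock (x axis, limma adjusted p under 0.05), higher and lower, with all 6 arrays and with each array left out in turn. Without WT-mock replicate 1 the counts were 24 higher and 81 lower, and without KO-miR-17 replicate 2 they were 21 and 53.

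Arrays of a group correlated at 0.994 over all genes, and array medians lay between 5.71 and 5.76 log2 units. The lower quartiles lay between 3.99 and 4.17, and readings near or under them may be background rather than transcript. The median difference over all genes was -0.03 in KO-miR-17 against WT-mock. The 24 probe sets of the poly-A spike-in controls were all lower on the KO-miR-17 arrays, by a mean of -0.54, and the KO-mock arrays showed -0.57. The 18 hybridization controls were lower by a mean of -0.29. The part of these offsets in the results was not tested. Markers of the CD4 lineage were present, with Cd4 at 9.24 and 9.17 in WT-mock and at 9.08 and 8.96 in KO-miR-17. Their 13 genes had a mean log2 intensity of 10.1 to 10.2 on the wild-type arrays and 9.85 to 9.93 on the KO-miR-17 arrays, and Thy1 was the only member called (-0.83 ± 0.10, limma adjusted p = 0.0097). It lost its call without WT-mock replicate 1 (-0.78, limma adjusted p = 0.0627).

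Markers of other cell types were read at low and at high intensities, and few were called. Among the brighter ones, the WT-mock and KO-miR-17 means were 9.61 and 8.64 for Ighm, 9.03 and 9.69 for Ctss, and 8.51 and 8.30 for the class II gene H2-Ab1. None of the CD8, dendritic cell, neutrophil or erythroid markers was called, and Gzma was the only NK cell marker called of 7, 4 of which lay under the highest lower quartile. Of the 10 B cell markers only Ighm was called, with a difference of -0.96 on the brightest of its probe sets and -0.91 on the next, whereas the others lay between -0.22 and 0.28. Of the 12 macrophage and monocyte markers, Fcgr3 was lower (-1.10) and Ctss higher (0.66), while 5 lay under the highest lower quartile, and neither call held in more than 1 of the 4 fits. Their part in the results was not tested.

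The largest residual loss was in Il10, which encodes an anti-inflammatory cytokine. Its log2 intensity was 8.32 and 8.02 on the WT-mock arrays and 3.78 and 3.45 on the KO-miR-17 arrays, and the latter lie under the lower quartile. On the KO-mock arrays it was 3.69 and 3.47, so the cells with and without miR-17 overlapped and both stood far under wild type. The difference from wild type was -4.55 ± 0.18 (SE, n = 2 arrays a group, limma adjusted p = 0.000144), a 23.4-fold lower intensity that is measured against a background reading. Il10 was called in all 4 fits.

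Several genes of the protease inhibitor list were also far below wild type. Ctla2b and Ctla2a encode relatives of the propeptide that inhibits cysteine proteases. Ctla2b read 9.04 and 8.88 in WT-mock against 5.54 and 5.16 in KO-miR-17 (-3.61 ± 0.16, limma adjusted p = 0.000154), and Ctla2a read 11.67 and 11.56 against 9.14 and 8.86 (-2.61 ± 0.12, limma adjusted p = 0.000154). Serpinf1, a secreted member of the serpin family that does not itself inhibit proteases, read 10.18 and 9.80 against 7.53 and 6.58 (-2.93 ± 0.29, limma adjusted p = 0.00612). Its second probe set gave -1.60. Cst7, a cystatin of cytotoxic cells, differed by -1.28, and its call was lost without WT-mock replicate 1 (limma adjusted p = 0.059). In the protease inhibitor list 4 of 12 members were called (33.3%, beside 6.8% of all genes), all lower, and these are the 4 named. Ctla2b, Ctla2a and Serpinf1 were called in all 4 fits.

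Gzma, which encodes granzyme A, shows how far 1 array can carry a value. It read 9.58 and 6.53 on the 2 WT-mock arrays, 5.42 and 4.71 in KO-mock, and 4.62 and 4.26 in KO-miR-17. The wild-type arrays differed from each other by about as much as the groups did, and the call (-3.61 ± 0.82, limma adjusted p = 0.0427) was lost without either KO-miR-17 array, with adjusted p = 0.0767 without replicate 1 and 0.19 without replicate 2. Without WT-mock replicate 1 the difference was -2.08, and without WT-mock replicate 2 it was -5.14. Gzmb, the granzyme B gene, differed by -1.6, Ctsw, the cathepsin W gene, by -1.66, and Srgn, the granule proteoglycan serglycin, by -0.48. The 4 were all the called members of the 14 cytotoxic granule genes (28.6%, beside 6.8% of all genes). The median difference of the list was 0.04 beside -0.03 over all genes. None of the 4 was called in all 4 fits, and without KO-miR-17 replicate 2 no member of the list was called.

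Other large losses spanned several functions. Gem, a small GTPase induced on activation, read 6.99 and 6.87 in WT-mock against 4.19 and 4.16 in KO-miR-17 (-2.75 ± 0.13). Tgfb3, a TGF-beta ligand, differed by -2.23, Ecm1, an extracellular matrix protein of Th2 cells, by -2.04, Padi2, a peptidylarginine deiminase, by -1.97, and Frmd4b, a FERM domain protein, by -2.15. The other Frmd4b probe sets gave -0.39, -0.46 and -1.75. Gem, Ecm1 and Padi2 were called in all 4 fits, whereas Tgfb3 and Frmd4b lost their calls without WT-mock replicate 1 (-1.88 and -1.65) and without KO-miR-17 replicate 2 (-1.97 and -1.57).

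**Figure D2:**
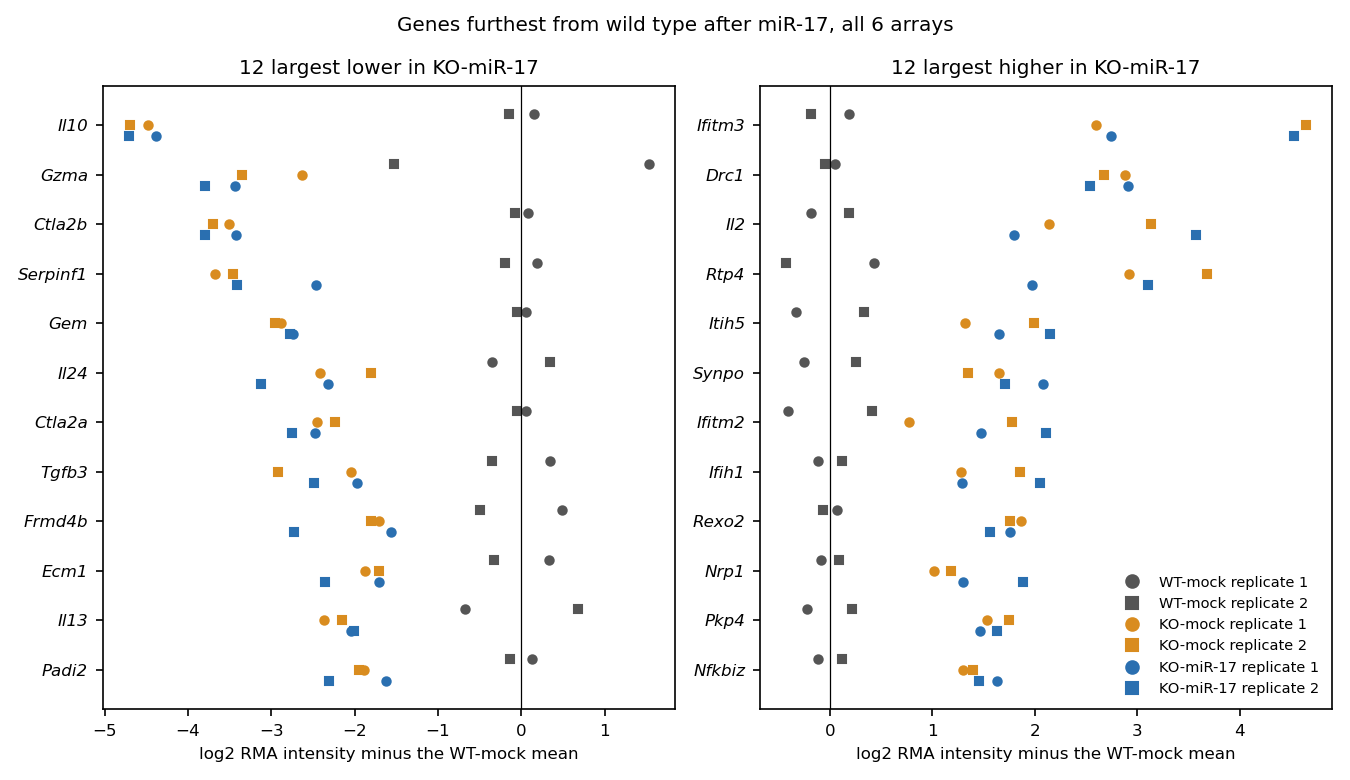
Log2 intensity of the 12 genes furthest below and the 12 furthest above wild type in KO-miR-17, as the difference from the WT-mock mean (x axis), with all 6 arrays as points. The KO-miR-17 and KO-mock points lie on the same side of wild type for each of the 24 genes.

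Ifitm3 showed the largest gain and Il2 the third largest, after Drc1, and the KO-miR-17 arrays of Ifitm3 and Il2 spread widely. Ifitm3, a membrane protein that restricts viral entry, read 5.26 and 4.89 in WT-mock and 7.83 and 9.61 in KO-miR-17 (3.64 ± 0.71, limma adjusted p = 0.0279). Il2, the T cell growth factor gene, read 5.02 and 5.39 against 7.01 and 8.78 (2.69 ± 0.54, limma adjusted p = 0.0303). In both genes the KO-mock arrays showed the same spread, with Ifitm3 at 7.67 and 9.73 and Il2 at 7.34 and 8.34. Each was called in only 1 of the 4 fits, the one without KO-miR-17 replicate 1, and the adjusted p reached 0.132 for Ifitm3 and 0.165 for Il2 in the others.

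Tighter gains were found in genes without a place in the lists. Drc1, a component of the dynein regulatory complex of cilia, read 4.35 and 4.25 in WT-mock and 7.21 and 6.84 in KO-miR-17 (2.73 ± 0.17, limma adjusted p = 0.000608). Rexo2, an oligoribonuclease of mitochondria and cytosol, read 9.39 and 9.25 against 11.07 and 10.88 (1.66 ± 0.10, limma adjusted p = 0.000608). Nfkbiz, an atypical nuclear IkappaB protein, differed by 1.54, Pkp4, a plakophilin, by 1.55, and Synpo, an actin-binding protein, by 1.90. All 5 were called in all 4 fits, although the second Synpo probe set, a dim one, gave -0.06. Itih5, an inter-alpha-trypsin inhibitor heavy chain, differed by 1.90 and Ifitm2 by 1.79, and both lost their calls without WT-mock replicate 1 (1.57 and 1.38) and without KO-miR-17 replicate 2 (1.65 and 1.48).

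Most of what remained was already there before miR-17 was returned. Of the 843 called genes, 574 were also called, in the same direction, in KO-mock against WT-mock, a comparison in which 810 genes or 6.54% were called, 3.74% higher and 2.79% lower (at an unadjusted p under 0.05, 21.6%, 12.8% and 8.76%). These 574 genes, 334 higher and 240 lower, are still away from wild type by the rule, and all 56 genes called in all 4 fits are among them. The KO-mock comparison uses the same WT-mock arrays, so a departure of those arrays appears in both. The median size of the 574 differences was 0.74 in KO-miR-17 and 0.72 in KO-mock, and 271 genes were nearer to wild type with miR-17 and 303 further. Without KO-mock replicate 2 the class held 88 genes and without KO-mock replicate 1 it held 252. Over the 4 arrays of the comparison itself, the class held 71 genes without WT-mock replicate 1, 276 without WT-mock replicate 2, 368 without KO-miR-17 replicate 1 and 67 without KO-miR-17 replicate 2.

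The remaining 269 called genes, 166 higher and 103 lower, were not called in KO-mock. Of them, 268 lay on the same side of wild type in KO-mock and 228 had an unadjusted p under 0.05 there, and their median size was 0.62 in KO-miR-17 and 0.42 in KO-mock. In the other direction, 236 genes were called in KO-mock and no longer in KO-miR-17. Their median size was 0.42 with miR-17 and 0.61 without, 197 of them still had an unadjusted p under 0.05 in KO-miR-17, and 6 had passed to the other side of the wild-type mean. A gene that is no longer called is therefore not shown to be back at the wild-type level.

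The direct comparison of the deficient groups called no gene. In KO-miR-17 against KO-mock the count was 0 of 12393 (0.0%), the smallest limma adjusted p was 0.428, and 487 genes (3.93%) had an unadjusted p under 0.05, 1.91% higher and 2.02% lower. With no such call, no gene could meet the rule for being away only with miR-17. In this fit no gene met the rule for being beyond wild type either. That rule asks for calls against WT-mock on one side in KO-mock and on the other in KO-miR-17. At unadjusted p under 0.05 the counts were 4 beyond wild type, 124 away only with miR-17 and 2011 still away. The absence of calls depended on the fit. With a block for the replicate number, 38 genes were called in KO-miR-17 against KO-mock. Cth, Ginm1, Irf9, Lgals7 and Plek were then beyond wild type, and Ankib1, Crot, Ell2, Nupr1, Plk2 and Tmem123 away only with miR-17. The labels do not say what arrays of the same number share. The genes named in the next paragraphs for a shift between the deficient groups were chosen after their values were seen, and their p-values for that shift are unadjusted.

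Among the 574 genes still away, 21 had shifted towards wild type with an unadjusted p under 0.05. Sdc4, a heparan sulphate proteoglycan, read 7.20 and 7.76 in WT-mock, 4.70 and 4.80 in KO-mock and 5.78 and 5.73 in KO-miR-17. The difference from wild type was -2.73 without miR-17 and -1.73 with it, and the dimmer Sdc4 probe set showed only -0.41 with miR-17. Epas1, which encodes HIF-2alpha, read 7.23 and 7.07 in WT-mock, 4.59 and 5.03 in KO-mock and 5.44 and 5.59 in KO-miR-17. In both genes the KO-miR-17 arrays stood between the other groups without overlapping either, and both were called against wild type in all 4 fits.

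Ms4a4c, a T cell tetraspan membrane protein, was higher in deficient cells and moved down. It read 7.55 and 7.41 in WT-mock, 9.83 and 9.51 in KO-mock and 8.67 and 8.75 in KO-miR-17, a difference from wild type of 2.19 without and 1.23 with miR-17. Its probe set is of a type that can hybridize to related transcripts, and its second probe set, which several transcripts share, gave 2.46 with miR-17. The sister gene Ms4a4b differed by 1.25 and 0.87, and these were the 2 called members of 9 in the MS4A family. The call of Ms4a4b was lost without WT-mock replicate 1 (0.96, limma adjusted p = 0.0531) and without KO-miR-17 replicate 2 (0.95, limma adjusted p = 0.053).

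Others of the 21 were Akap12, a kinase-anchoring protein (0.72 with miR-17 and 1.33 without), Kdm5b, a histone demethylase (-0.63 and -1.06), Junb, an AP-1 subunit (-0.51 and -0.85), and Dna2, a nuclease of DNA replication (0.63 and 0.99). Cxcr4, the receptor for CXCL12, differed by -1.47 with miR-17 and -1.83 without, and Nfil3, a basic leucine zipper factor, by -1.27 and -1.59. Cxcr4 and Nfil3 were called against wild type in all 4 fits, whereas Kdm5b, Junb and Dna2 were called in none and Akap12 in 1.

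Another 12 genes of the 574 went further from wild type instead. Tgfbr2, the type II TGF-beta receptor and a published target of several families of the cluster, read 9.43 and 9.54 in WT-mock, 9.09 and 8.79 in KO-mock and 8.42 and 8.21 in KO-miR-17. It was thus lower than wild type in cells without the cluster (-0.55) and lower again with miR-17 (-1.17 ± 0.13, limma adjusted p = 0.00741), and the 3 groups did not overlap. The dimmer Tgfbr2 probe sets gave -0.34 and 0.06 with miR-17. Rbl2, the retinoblastoma relative p130 and another published miR-17 target, read 8.30 and 8.40, then 7.84 and 7.85, then 7.36 and 7.45 in the same order of groups (-0.51 without and -0.95 with miR-17), and its second probe set gave -0.83. Tgfbr2 and Rbl2 were called against wild type in all 4 fits.

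Gbp8, an interferon-inducible GTPase, went from -0.65 in KO-mock to -1.41 in KO-miR-17, AW112010, a transcript of activated T cells, from -0.74 to -1.15, and Tgoln1, a trans-Golgi protein, from -0.46 to -0.76. In the upward direction Cd200, the ligand of an inhibitory receptor, went from 0.72 to 1.04 and Nrp1, the neuropilin 1 gene, from 1.10 to 1.59. Of these, Gbp8, AW112010, Tgoln1 and Cd200 were called against wild type in all 4 fits, and Nrp1 in 3 (1.5, limma adjusted p = 0.064 without WT-mock replicate 1).

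Of the 269 genes that were not called in KO-mock, 54 stood further from wild type than KO-mock with an unadjusted p under 0.05. Jak1, the kinase of gamma-chain and interferon receptors and a published miR-17 target, read 9.89 and 9.71 in WT-mock, 9.60 and 9.41 in KO-mock and 9.08 and 8.86 in KO-miR-17 (-0.83 ± 0.12, limma adjusted p = 0.0145), and its other probe sets gave -0.79 and -0.44. Crot, a peroxisomal carnitine acyltransferase, read 8.07 and 8.02, then 7.93 and 7.75, then 7.15 and 7.19 (-0.87 ± 0.11, limma adjusted p = 0.0115). Tmem123, a cell-surface mucin-like receptor, read 8.72 and 8.65, then 8.54 and 8.48, then 7.82 and 7.92 (-0.81 ± 0.10, limma adjusted p = 0.0097). In the 3 genes the KO-miR-17 arrays stood below both other groups.

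Among the 843, 34 genes (22 lower and 12 higher) had an unadjusted p under 0.05 against KO-mock and a larger p in KO-mock against WT-mock, and Crot and Tmem123 are of this kind. Ankib1, a ubiquitin ligase of the RBR type, was the single called gene whose KO-mock mean lay on the opposite side of wild type. It read 8.19 and 8.0 in WT-mock, 8.18 and 8.28 in KO-mock and 7.35 and 7.53 in KO-miR-17 (-0.66 ± 0.12, limma adjusted p = 0.0242), and its KO-mock arrays overlapped the wild-type arrays. Sesn3, a stress-induced regulator of mTORC1, differed by -1.32 (-0.53 in KO-mock), and Ccng1, the cyclin G1 gene, by -0.57 (-0.13 in KO-mock). None of the 34, nor Jak1, was called in all 4 fits, and the limma adjusted p reached 0.0903 for Jak1, 0.07 for Crot, 0.0641 for Tmem123, 0.148 for Ankib1 and 0.209 for Sesn3 when 1 array was left out.

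Upward, Aqp3, a channel for water and glycerol, read 5.95 and 5.85 in WT-mock, 6.17 and 6.21 in KO-mock and 7.33 and 6.83 in KO-miR-17 (1.18 ± 0.18, limma adjusted p = 0.0151), with the other probe sets at 0.85 and 1.12. Marcksl1, a cytoskeletal substrate of protein kinase C, differed by 1.26 (0.48 in KO-mock), Tnfsf9, the 4-1BB ligand, by 0.84 (0.24), Casp4, an inflammatory caspase, by 0.68 (0.23), and Lipg, an endothelial-type lipase, by 0.88 (0.21). Aqp3 lost its call without either WT-mock array, and Marcksl1 only without KO-miR-17 replicate 2 (1.34, limma adjusted p = 0.0791).

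At the unadjusted threshold the 4 genes that crossed to the other side of wild type were Plek, Lgals7, Irf9 and Ginm1. Plek, the platelet and leukocyte protein pleckstrin, read 6.77 and 6.71 in WT-mock, 6.24 and 6.21 in KO-mock and 7.10 and 7.17 in KO-miR-17. Lgals7, a galectin, read 6.44 and 6.55, then 6.03 and 6.17, then 6.95 and 6.97. Neither was called against wild type (limma adjusted p = 0.0977 for Plek and 0.073 for Lgals7), and the dimmer Plek probe sets gave -0.11 and 0.09.

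Irf9, the DNA-binding subunit of the type I interferon response factor, crossed downward, from 8.56 and 8.48 in KO-mock to 7.89 and 8.0 in KO-miR-17, with wild type at 8.27 and 8.21 between them. Ginm1, a membrane glycoprotein, did the same, at 6.58 and 7.00 in KO-mock, 5.55 and 5.79 in KO-miR-17 and 6.24 and 6.43 in wild type. Against wild type the limma adjusted p was 0.131 for Irf9 and 0.0715 for Ginm1. The 3 groups did not overlap in any of these 4 genes.

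**Figure D3:**
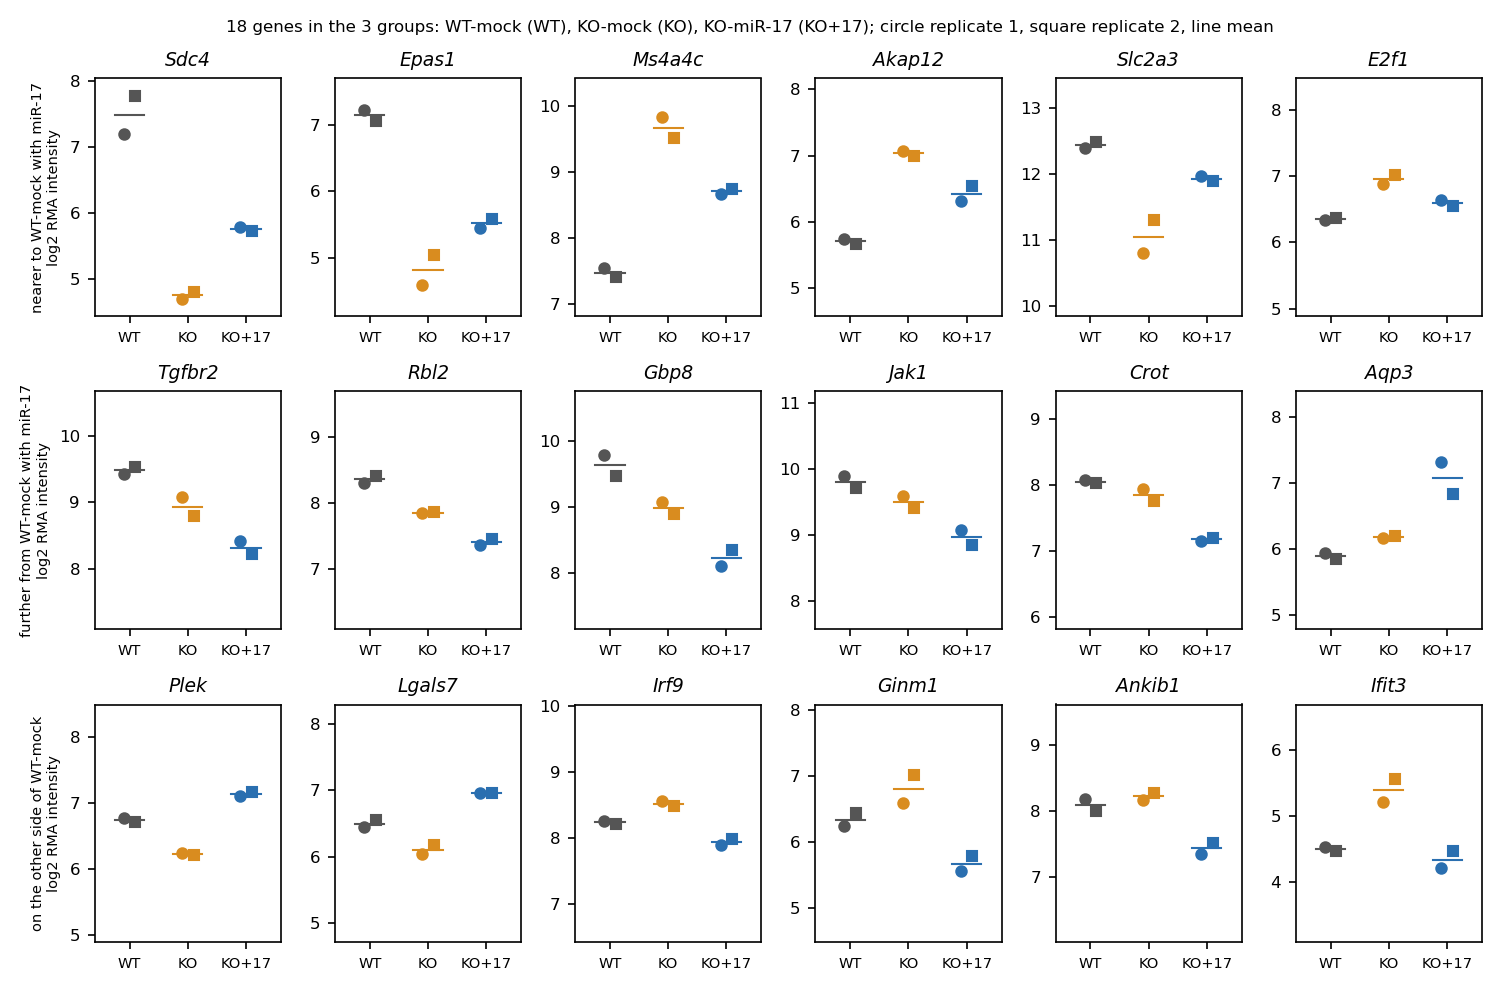
Log2 intensity (y axis, a range of the same width in each panel) of 18 genes on all 6 arrays, grouped by whether the KO-miR-17 mean lay nearer to wild type than the KO-mock mean, further from it, or on the other side. The genes were chosen after their values were seen. No difference between KO-mock and KO-miR-17 passed the adjusted threshold in the fit without a block for the replicate number.

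Of the genes no longer called, Slc2a3, the glucose transporter GLUT3, read 12.40 and 12.48 in WT-mock, 10.81 and 11.30 in KO-mock and 11.96 and 11.90 in KO-miR-17. The difference went from -1.39 to -0.51 (limma adjusted p = 0.0766 with miR-17), and the KO-miR-17 arrays were still below both wild-type arrays. Ckb, brain-type creatine kinase, went from -0.98 to -0.41, Selp, P-selectin, from 1.33 to 0.48, and Kpna2, an importin, from 0.47 to 0.11. E2f1, the cell cycle factor and the best known miR-17 target, read 6.34 and 6.37 in WT-mock, 6.89 and 7.03 in KO-mock and 6.64 and 6.55 in KO-miR-17 (0.24 ± 0.13 with miR-17, limma adjusted p = 0.318). Its KO-miR-17 arrays lay between the other groups and overlapped neither.

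Of 29 published targets of the miR-17 family that were measured, 8 were called (27.6%, beside 6.8% of all genes), all lower. They were Tgfbr2, Txnip, Rbl2, Ulk1, Jak1, Stat3, Sqstm1 and Zbtb7a. The median of the 29 was -0.22 in KO-miR-17 and -0.15 in KO-mock, beside -0.03 over all genes in both. Txnip, an inhibitor of thioredoxin, read 9.82 and 9.72 in WT-mock, 8.71 and 8.53 in KO-mock and 8.71 and 8.49 in KO-miR-17 (-1.17 ± 0.12, limma adjusted p = 0.00612), so it was as low with miR-17 as without. Ulk1, an autophagy kinase, differed by -0.91 and -0.82, Stat3, a transducer of cytokine signals, by -0.84 and -0.70, Sqstm1, the autophagy receptor p62, by -0.66 and -0.46, and Zbtb7a, a zinc finger repressor, by -0.76 and -0.42, each with miR-17 first.

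In KO-mock, 3 of the 29 had been called higher and 6 lower. With miR-17 none was called higher and 8 were called lower. A lost call does not show a return to the wild-type level. Tgfbr2, Txnip and Rbl2 were the members called in all 4 fits, and Sqstm1 and Zbtb7a were called in none. The list counted 3 without WT-mock replicate 1 and 3 without KO-miR-17 replicate 2, against 6 and 7 without the other arrays. Creb1 differed by 0.17 ± 0.14, Ncoa3 by -0.23 ± 0.13, Cdkn1a, the p21 gene, by -0.53 ± 0.20 and Bcl2l11, the BIM gene, by -0.75 ± 0.22 (limma adjusted p = 0.551, 0.337, 0.168 and 0.0844).

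**Figure D4:**
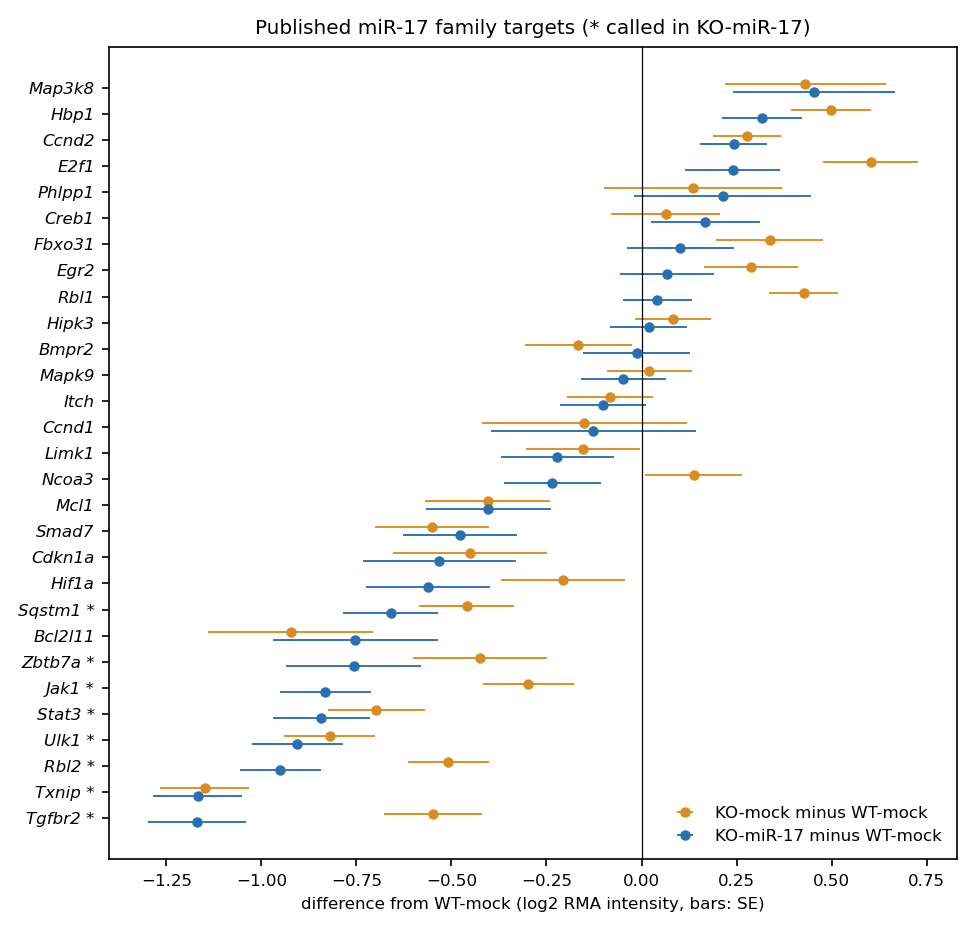
Difference from WT-mock (x axis, log2 intensity, bars are SE) of 29 published miR-17 family targets in KO-miR-17 and in KO-mock, which share the WT-mock arrays. The 8 called with miR-17 are marked by an asterisk and all lie below 0.

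The families that were not returned can be read in the same way. Of 11 measured targets of miR-19, 2 were called lower and 1 higher, with a median of -0.27 in KO-miR-17 and -0.17 in KO-mock. The higher one was Rnf11, a ubiquitin ligase adaptor, at 1.21 ± 0.22 with miR-17 and 1.21 without (limma adjusted p = 0.0219), and a second Rnf11 probe set of nearly equal brightness gave 0.69 with miR-17. Rnf11 kept its call only without KO-miR-17 replicate 1 (limma adjusted p = 0.03), and the difference was 0.98 without KO-miR-17 replicate 2. The lower ones were Tgfbr2 and Socs3, a feedback inhibitor of STAT3 signalling (-1.23 ± 0.29, but -0.77 without WT-mock replicate 1). Of 13 targets of miR-92, 2 were lower, the phosphatases Dusp10 (-1.54) and Dusp2 (-0.46), and of 12 targets of miR-18 only Tgfbr2 was. The shares called were 27.3% for miR-19, 15.4% for miR-92 and 8.33% for miR-18, beside 6.8% of all genes. Tgfbr2 is counted in the miR-17, miR-18 and miR-19 lists alike. These lists were written with earlier results of these arrays known, and no test compares them with other genes.

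The 14 measured genes of the Th2 program had a median of -0.74 in KO-miR-17 and -0.79 in KO-mock. Of them 8 were called lower (57.1%, beside 2.77% of all genes) and none higher. Beside Il10 these included Il13, which read 7.55 and 8.90 in WT-mock against 6.18 and 6.22 in KO-miR-17 (-2.03 ± 0.37), and Il4, which read 9.93 and 10.23 against 8.11 and 8.62 (-1.72 ± 0.34, limma adjusted p = 0.0298). Il5, the eosinophil growth factor gene, differed by -1.14, Il24, an interleukin of the IL-10 family, by -2.73, Il4ra, the receptor chain for IL-4, by -0.89, and Maf, a factor that drives Il4, by -0.57. Gata3, the master regulator of Th2 cells, was lower on each KO-miR-17 array, at 9.56 and 9.49 against 9.94 and 10.29, but was not called (-0.59 ± 0.15, limma adjusted p = 0.0599). Without WT-mock replicate 2 the Il13 difference was -1.35. The count of the list was 4 to 6 with 1 array of the comparison left out, and Il10, Il24, Il4ra and Nfil3 were called in all 4 fits, while Il4 and Maf were called in none.

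In the Th1 list 5 of 19 members were called lower and 1, Il2, higher (31.6% called, beside 6.8% of all genes). The median was -0.59 in KO-miR-17 and -0.34 in KO-mock. Ifng read 5.90 and 5.29 in WT-mock, 4.87 and 4.34 in KO-mock and 4.31 and 4.05 in KO-miR-17 (-1.41 ± 0.25, limma adjusted p = 0.0214), the last under or near the lower quartile. Il12rb2, the inducible chain of the IL-12 receptor, differed by -1.33 ± 0.17 and Stat4, which relays its signal, by -1.04 ± 0.10, and both were called in all 4 fits. Il12rb1, the other chain, differed by -0.74 and Ifngr1, the interferon gamma receptor, by -1.31. Tbx21, the gene of T-bet, was not called (-0.59 ± 0.17, limma adjusted p = 0.083). Without WT-mock replicate 1 or KO-miR-17 replicate 2 the list held 2 lower and no higher calls, and Ifng lost its call in both cases (-1.11 and -1.28).

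Il7r, the IL-7 receptor chain of resting and memory T cells, was among the tightest differences. It read 10.94 and 10.74 in WT-mock, 9.49 and 9.47 in KO-mock and 9.51 and 9.46 in KO-miR-17 (-1.35 ± 0.09, limma adjusted p = 0.00132), and its second probe set gave -1.55. In the list of gamma-chain receptors and their signalling genes 5 of 11 were lower (45.5%, beside 2.77% of all genes) and none higher. They were Il7r, Il4ra, Jak1, Il21r and Stat5b. The median was -0.42 with miR-17 and -0.53 without, and the count was 2 without WT-mock replicate 1 or KO-miR-17 replicate 2. The regulatory T cell list had 4 lower members, Il10, Ctla4, Entpd1 and Itgae, and 1 higher, Nrp1, of 17. Ctla4, an inhibitory receptor, read 10.51 on both WT-mock arrays and 9.43 and 9.38 in KO-miR-17 (-1.11 ± 0.08, limma adjusted p = 0.00165). Foxp3 lay under the lower quartile on all arrays in cells sorted as CD25-, at 3.56 and 3.45 against 3.42 and 3.58, a difference of -0.01 whose sign turned when the arrays were quantile normalized again (0.06).

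Batf, an AP-1 family factor needed for Th17 and follicular helper cells, differed by -1.33 ± 0.14 and was called in all 4 fits. Bcl6, the follicular helper regulator, differed by -1.52, and its other probe set gave -0.46. Of the 9 inhibitory receptor genes, Ctla4 and Havcr2, the TIM-3 gene (-0.80), were lower and Cd200 higher. In the integrin and adhesion list Sdc4, Itgae (-1.11), Icam1 (-0.50) and Itgb2 (-0.44) were lower and Itga6 (0.50) was higher, of 17. Itgae read 4.78 and 4.46 in WT-mock against 3.31 and 3.71 in KO-miR-17, and the latter lie under the lower quartile. None of the 14 TNF receptor family costimulators was called at the adjusted threshold in limma, with 4 at an unadjusted p under 0.05. Bcl6 kept its call only without WT-mock replicate 2, and Icam1, Itgb2 and Itga6 in none of the 4 fits.

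Of 25 measured genes of DNA replication, all 25 lay above 0, and 18 were called higher (72.0%, beside 4.03% of all genes) and none lower. The median was 0.56 in KO-miR-17 and 0.62 in KO-mock. Ung, uracil DNA glycosylase, read 6.67 and 7.06 in WT-mock and 7.80 and 8.09 in KO-miR-17 (1.08 ± 0.17, limma adjusted p = 0.0154). Mcm5, a subunit of the replicative helicase, read 9.05 and 9.16 against 9.89 and 9.86 (0.77 ± 0.09), and Pcna, the polymerase clamp, 11.99 and 12.12 against 12.56 and 12.66 (0.56 ± 0.08). In each of these genes the KO-miR-17 arrays lay above both wild-type arrays. The calls of this list rested on 2 arrays: 0 members were called without WT-mock replicate 1 and 0 without KO-miR-17 replicate 2, against 17 and 6 without WT-mock replicate 2 and KO-miR-17 replicate 1.

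Mitosis genes showed 7 of 24 higher (29.2%, beside 4.03% of all genes) with a median of 0.43. Among the 7 were Plk1 (0.67), Prc1 (0.67), Cdk1 (0.49) and Aurka (0.44). Ribosome biogenesis genes showed 11 of 19 higher (57.9%) with a median of 0.60, among them Nop58 (0.99), Gnl3 (0.96) and Nolc1 (0.83). Myc, which drives many of the latter, read 8.41 and 8.86 in WT-mock and 9.54 and 9.91 in KO-miR-17 (1.09 ± 0.21, limma adjusted p = 0.0261). Without KO-miR-17 replicate 2 no gene of either list was called, and without WT-mock replicate 1 the counts were 0 and 1. Myc was not called in these fits (0.91 and 0.87, limma adjusted p = 0.153 and 0.143). In the opposite direction, 4 of 17 cyclin-dependent kinase inhibitors and antiproliferative genes were lower: Btg2 (-1.08), Rbl2 (-0.95), Ccng2 (-0.88) and Cdkn1b, the p27 gene (-0.71). That count was 1 without WT-mock replicate 1 and 1 without KO-miR-17 replicate 2.

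Promoters of the replication list were searched for the E2F site on both strands, because all its measured members lay above 0. The site is written here as TTTCCCGC, TTTCGCGC, TTTGCCGC or TTTGGCGC. A part of E2F factors in these differences was not tested. The window is RefSeq's, from 250 bases before to 50 after a transcription start on GRCm38.p6. Of the 25 genes 22 had such a window, and 11 of them held a match, beside 402, or 4.07%, of the 9887 tested genes with a window. The 2 promoters below, of Mcm5 (chr8:75109259-75109558, plus strand) and Cdc6 (chr11:98907901-98908200, plus strand), are shown because both genes were called higher (0.77 and 0.87), and matches are in capitals. A match is a description of the letters and not a bound site. Of the members called higher, 15 had a window and 7 of these held a match. Lig1, Mcm6, Orc1 and Rfc3 were not called and held a match too. A match therefore does not set the called members apart. The shares of the list and of all tested genes come from list membership and letters, not from intensities. They say nothing about the differences measured here.
Mcm5: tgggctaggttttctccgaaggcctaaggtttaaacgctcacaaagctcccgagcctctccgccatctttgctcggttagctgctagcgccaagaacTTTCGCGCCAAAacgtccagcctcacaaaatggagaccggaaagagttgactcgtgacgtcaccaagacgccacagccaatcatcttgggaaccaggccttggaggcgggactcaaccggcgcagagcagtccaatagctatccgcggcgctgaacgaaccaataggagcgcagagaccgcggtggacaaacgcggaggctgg
Cdc6: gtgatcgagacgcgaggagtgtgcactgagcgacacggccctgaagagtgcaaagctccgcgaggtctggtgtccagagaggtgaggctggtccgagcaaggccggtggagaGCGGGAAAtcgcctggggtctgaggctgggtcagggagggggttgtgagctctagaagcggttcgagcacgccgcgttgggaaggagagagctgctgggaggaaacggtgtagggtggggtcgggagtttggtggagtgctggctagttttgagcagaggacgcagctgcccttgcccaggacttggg

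Of 24 measured interferon-stimulated genes, 6 were called higher, none was called lower and 18 did not pass, and 22 lay above 0, with a median of 0.84 in KO-miR-17. In KO-mock the median was 1.12 and 11 were called. Beside Ifitm3, Rtp4, a chaperone that restricts viruses, read 5.24 and 4.38 in WT-mock, 7.73 and 8.49 in KO-mock and 6.78 and 7.91 in KO-miR-17 (2.54 ± 0.43), with a second, dim probe set at -0.17. Ifih1, the RNA sensor MDA5, differed by 1.67, Ifi27l2a by 1.29 ± 0.15, Ifi35 by 0.95 and Ifit2 by 0.88. Ifi27l2a was the member called in all 4 fits, and the count was 2 and 3 without WT-mock replicates 1 and 2, 11 without KO-miR-17 replicate 1 and 1 without KO-miR-17 replicate 2.

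Ifit3 and Irf7 were among the members called higher in KO-mock that were no longer called with miR-17. The list had 11 higher calls in KO-mock and 6 in KO-miR-17. Ifit3, a translation inhibitor of infected cells, read 4.52 and 4.47 in WT-mock, 5.22 and 5.56 in KO-mock and 4.21 and 4.47 in KO-miR-17, where both arrays were below both KO-mock arrays. Irf7, the factor that amplifies the response, read 6.89 and 6.56, then 7.68 and 8.50, then 7.16 and 7.66 (0.68 ± 0.28, limma adjusted p = 0.2), so both KO-miR-17 arrays still lay above both wild-type arrays. Both were chosen after their values were seen. Also after seeing the values, Ifit1 (1.43 ± 0.42) and Bst2 (1.06 ± 0.34) can be named as large differences that were not called.

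The core of the interferon-stimulated response element, taken as GAAA, any 2 bases and GAAA, and searched on both strands in the same windows, was found in 10 of the 17 genes of the list that had a window (58.8%), beside 3.84% of all tested genes with one. A few of these promoters are shown with the matches in capitals: Ifitm3 (chr7:141010695-141010994, minus strand) and Ifih1 (chr2:62646206-62646505, minus strand), which were still higher than wild type, and Ifit3 (chr19:34583279-34583578, plus strand), which was not. The core is present in all 3, so these letters alone do not set the 2 behaviours apart. Of the members called higher, 4 had a window and 2 of these held the core. The shares of 58.8% and 3.84% come from list membership and letters, not from intensities. They say nothing about the differences measured here.
Ifitm3: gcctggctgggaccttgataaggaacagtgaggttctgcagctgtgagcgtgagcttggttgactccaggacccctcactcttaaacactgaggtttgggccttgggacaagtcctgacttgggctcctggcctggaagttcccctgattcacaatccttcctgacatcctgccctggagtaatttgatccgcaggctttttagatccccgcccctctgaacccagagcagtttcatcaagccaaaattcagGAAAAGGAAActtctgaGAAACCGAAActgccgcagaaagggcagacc
Ifih1: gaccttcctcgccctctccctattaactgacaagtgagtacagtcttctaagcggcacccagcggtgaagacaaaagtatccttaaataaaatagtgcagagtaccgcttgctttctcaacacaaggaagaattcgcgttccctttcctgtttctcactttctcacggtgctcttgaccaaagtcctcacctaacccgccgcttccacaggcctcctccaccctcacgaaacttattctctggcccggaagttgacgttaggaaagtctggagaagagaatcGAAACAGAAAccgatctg
Ifit3: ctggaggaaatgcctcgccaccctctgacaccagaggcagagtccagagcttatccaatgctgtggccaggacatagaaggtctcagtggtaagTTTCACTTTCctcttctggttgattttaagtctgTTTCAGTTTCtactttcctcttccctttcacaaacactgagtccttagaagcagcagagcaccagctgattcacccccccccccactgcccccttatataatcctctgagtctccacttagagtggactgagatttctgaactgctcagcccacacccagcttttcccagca

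Of the 9 interferon-inducible GTPases measured, which answer mainly to interferon gamma, 1 was called (11.1%, beside 6.8% of all genes). All 9 measured lay below 0 in KO-miR-17 with a median of -0.45, whereas the KO-mock median was -0.04. Only Gbp7 was called (-0.56 ± 0.12, limma adjusted p = 0.0376). It read 9.69 and 9.66 in WT-mock, 9.44 and 9.36 in KO-mock and 8.95 and 9.28 in KO-miR-17, and it lost its call in all 4 fits with 1 array left out. Gbp3 (-0.52 ± 0.15) and Irgm2 (-0.53 ± 0.17) were not called. Gbp8 is not in the list and was described above.

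The share called was 20.0% in the sterol and fatty acid synthesis list and 16.7% in the ATF4 list, beside 6.8% of all genes. It was 0.0% in the glycolysis and ribosomal protein lists. Of 20 sterol and fatty acid synthesis genes, 19 lay above 0, with a median of 0.50 in KO-miR-17 and 0.36 in KO-mock, and 4 were called higher, against 0 in KO-mock: Hmgcs1 (0.68), Sqle (0.63), Idi1 (0.56) and Acly (0.61). Of 24 ATF4 and amino acid genes, 4 were called higher, Shmt2 (0.84), Aars (0.82), Aldh18a1 (0.76) and Phgdh (0.71), with a median of 0.48 beside 0.23 in KO-mock, where 1 was called. In both lists no member was called without WT-mock replicate 1 or without KO-miR-17 replicate 2. The 16 glycolysis genes had no call in limma, with 4 at an unadjusted p under 0.05 and a median of -0.06. The 16 ribosomal protein genes had none at either threshold.

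Called members of the signalling lists were lower, apart from Socs2. Of 22 TGF-beta genes 4 were lower, Tgfb3, Tgfbr2, Furin (-0.78), which processes the ligand precursor, and Id2 (-0.86), a target of the pathway. Of 17 NF-kappaB genes 3 were lower, Ikbke (-0.79), Bcl3 (-0.78) and Birc3 (-0.54). The list does not hold Nfkbiz, described above, which was higher (1.54). Of 17 PI3K and FOXO genes 4 were lower, Sesn3, Foxo1 (-0.49), Inpp5d, the SHIP1 gene (-0.49), and Pdk1 (-0.45), and none of the last 3 was called in any of the 4 fits with 1 array left out. The symbol Pdk1 is that of pyruvate dehydrogenase kinase 1, a mitochondrial enzyme, and not of the PI3K pathway kinase Pdpk1. Its place in the PI3K and FOXO count therefore does not speak for that pathway. Among 22 JAK, STAT and SOCS genes 5 were lower and Socs2 was higher (1.07). Tarbp2, a Dicer partner, was the called member of 11 microRNA processing genes (-0.81). Without KO-miR-17 replicate 2 the counts were 1 for TGF-beta, 0 for NF-kappaB, 0 for PI3K and FOXO and 0 for microRNA processing, and without WT-mock replicate 1 they were 1, 0, 0 and 1.

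In the other lists the share called ran from 4.0% in T cell receptor signalling to 28.6% in early activation genes, beside 6.8% of all genes. None of them is given a test of its own. In early activation genes 4 of 21 were lower (Gem, Btg2, Junb and Dusp2) and 2 higher (Fos and Myc), and in naive and memory homing genes 3 of 13 were lower (Il7r, Satb1 and Foxo1). Lower calls were Ulk1, Sqstm1 and Gabarap of 18 autophagy genes, Cxcr4 of 18 chemokine and chemokine receptor genes, Pdk1 of 18 hypoxia genes, Sh2d2a of 25 T cell receptor signalling genes, Edem1 of 21 endoplasmic reticulum genes, Ccng1 of 15 p53 targets, Batf and Stat3 of 11 Th17 genes and Bcl6 of 12 follicular helper genes. Higher calls were Ndufa4 and Cyc1 of 26 respiratory chain genes, Psmb5, Psmb6 and Psmc2 of 23 proteasome genes and Bak1 of 14 genes of the BCL-2 family. Of the respiratory chain genes 25 lay above 0, with a median of 0.23, beside -0.03 over all genes.

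**Figure D5:**
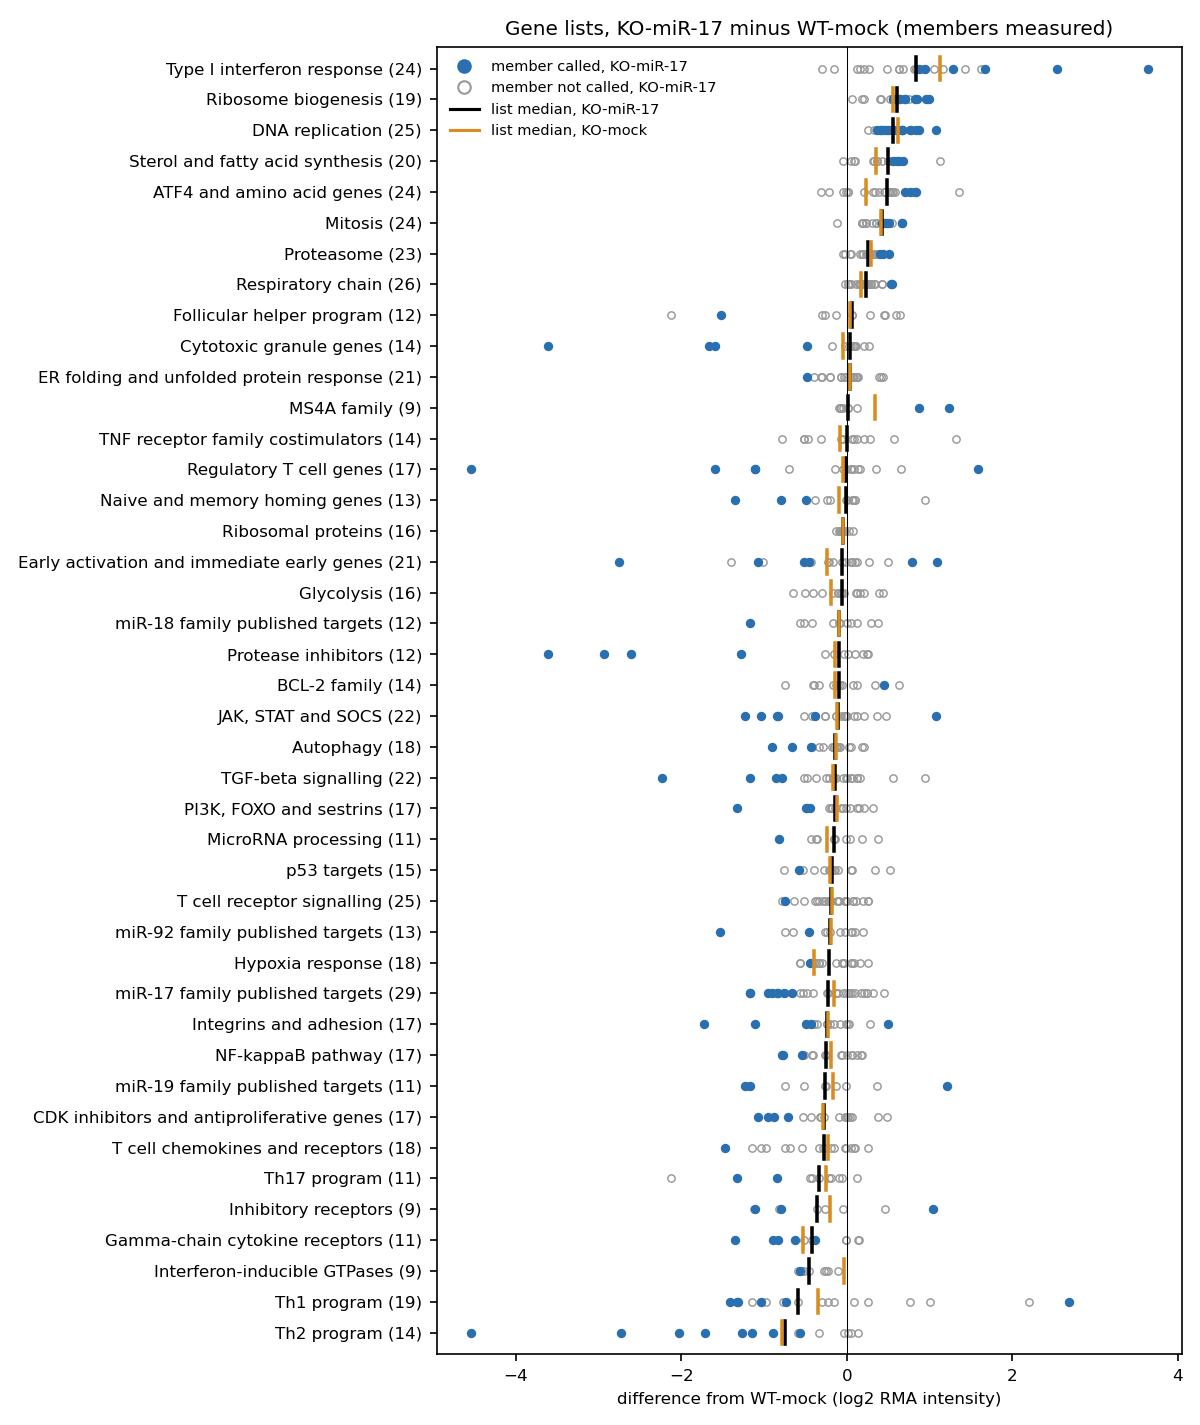
Difference from WT-mock (x axis, log2 intensity) of each measured member of 42 gene lists in KO-miR-17, filled where called, with the list medians in KO-miR-17 (black bars) and KO-mock (orange bars). Medians run from -0.74 for the Th2 list to 0.84 for the type I interferon list, and the 2 bars of a list lie close together for most lists.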

How the data were processed

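Each array was deposited as RMA log2 intensities per probe set, per the submitters' processing notes, with no version given. RMA removes background, forces the arrays onto a common distribution and combines the probes of a set, which hides any shift common to most of the transcriptome. That the logarithm has base 2 rests on the usual output of RMA and on the values' range.

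Of the 22626 probe sets other than controls, the 20380 with a single symbol in GEO's platform table were kept. A further 691 carried several symbols and 1555 none. Identifiers were matched to a RefSeq table of GRCm38.p6, which lacked 29 of them. Each of the 12393 genes was represented by its brightest probe set, judged by the mean of the 6 arrays.

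The fit used limma 3.58.1 under R 4.3.3 (lmFit, then contrasts.fit, then eBayes with trend) on all 6 arrays, with 3 residual and 4.69 prior degrees of freedom. Benjamini-Hochberg adjustment was made separately for each comparison. The 2 arrays a group limit the precision, and fits that omit an array assume that the lone array of a group varies like the others. The procedure was tested on simulated arrays with independent noise, where 7.07% of the calls were false. Of genes changed by 0.5 log2 units it recovered 35%, and of those changed by 1 it recovered 96.4%. Noise shared by arrays of the same replicate number was not simulated.

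The members and the 51 gene lists, of which 9 are cell type markers or sex-linked genes, were chosen with earlier results of these data known, and 88 listed genes were not analysed here. Named genes are the 12 largest called differences in each direction with groups that do not overlap (predicted genes and antigen receptor segments left out), up to 8 genes of each class by smallest adjusted p, up to 5 called members of each list by smallest adjusted p, and 14 fixed genes (Il2, Il4, Il7r, Il10, Ifng, Gata3, Tbx21, Foxp3, E2f1, Rbl2, Tgfbr2, Creb1, Cdkn1a and Bcl2l11). Genes named outside this rule, among them Cd4, Ncoa3, Zbtb7a, Il5, Maf, Ifngr1, Cdc6, Ifit1, Ifit3, Irf7, Bst2, Gbp3, Irgm2 and those named for a shift between the deficient groups, were chosen after their values were seen. Alternatives were another centring, normalization or choice of probe sets, dim genes left out, eBayes without trend, only the 4 arrays compared, a block for the replicate number, unadjusted p-values, and each array left out.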

Additional observations from a re-analysis of the deposited data

How the results depend on the processing

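The counts depended on the estimate of spread more than on the scaling. With eBayes without trend, 508 genes were called in KO-miR-17 against WT-mock, 267 of them higher, and 363 were still away from wild type. With the mean of a gene's probe sets 333 were higher. With 1 of the 6 arrays left out, the called genes numbered 74 to 697, the higher 21 to 394, the lower 53 to 303 and those still away 67 to 368. At an unadjusted p under 0.05, 2011 genes were still away, 4 beyond wild type and 124 away only with miR-17. With a block for the replicate number, 2983 genes were called, 1890 higher and 1093 lower, 2122 were still away, 5 were beyond wild type (Cth, Ginm1, Irf9, Lgals7 and Plek) and 6 were away only with miR-17 (Ankib1, Crot, Ell2, Nupr1, Plk2 and Tmem123), while 38 were called in KO-miR-17 against KO-mock. The labels do not say what a shared number means, and across genes the replicate 1 minus replicate 2 values of the groups had correlations of 0.429 to 0.634. The count called was 1054 with centred arrays, 945 with quantile normalization repeated, 680 with only the 4 arrays and 1043 with dim genes left out (of 6197), all with the median difference over all genes between -0.05 and 0.08. The cause of these moves was not tested. Foxp3, at background throughout, was the named gene whose sign turned, from -0.01 to 0.0633 with quantile normalization repeated, and it ranged from -0.0884 to 0.0775 with an array left out. The median of a list changed sign in 0 to 7 of 51 lists across these settings. Readings near the lower quartile give no measured ratio.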

Other observations

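Genes beside the cluster on chromosome 14 gave few calls. Of its 40 nearest measured neighbours by order, Tmtc4, which encodes a mannosyltransferase-like membrane protein, was the only gene called, at 7.32 and 7.50 in WT-mock and 8.0 and 8.35 in KO-miR-17 (0.76, limma adjusted p = 0.0334). On the whole chromosome 28 of 438 genes were called, or 6.39%, beside 6.8% of all genes. Chromosome 19 had 47 of 444 called, or 10.6%.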
